A study of Mus musculus with 88 samples.

Results

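The livers of 5 wild type (WT) mice were compared with the other 8 tissues of the WT mice, over every gene of the count table. These 5 liver libraries came from a series of 88 libraries of 9 tissues and 10 mice, and were chosen by their labels alone. The comparison group was the 38 WT libraries of kidney, lung, spleen, heart and 4 skeletal muscles (EDL, gastrocnemius, soleus and tibialis), with each tissue given the same weight whatever its number of libraries. WT kidney and WT spleen had 4 libraries and each other WT tissue had 5. All mice, of both genotypes, were males of strain C57BL/6NTac aged 65 to 85 days that had been fasted for 18 h. The other 45 libraries came from mice labelled Cdh15 KO, 5 of them liver, and served as a repeat of the comparison in other animals. Cdh15 encodes M-cadherin, a cell adhesion protein of muscle cells. No group of fed mice was analysed here, so the levels below describe fasted liver, and how far the fast changed them was not tested. The labels do not say how the Cdh15 gene was disrupted or which liver lobe was taken.

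Hepatocytes, which make up most of the liver's mass, secrete most plasma proteins, build bile acids and lipoproteins, turn ammonia into urea and chemically modify drugs and hormones. During a fast the liver supplies other organs with fuel: it releases glucose made from lactate, glycerol and amino acids, and it oxidises fatty acids to ketone bodies that it exports because it uses almost none itself. Transcription factors such as HNF4A, the FOXA proteins and C/EBPα maintain hepatocyte genes, and PPARα, a receptor for fatty acids, drives many genes of fat oxidation in the fasted state.

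The 88 libraries held 8.21 to 25.1 mega-counts (Mcounts), with a median of 19.0 Mcounts, and the 5 WT livers 10.6, 23.2, 19.2, 22.2 and 13.9 Mcounts in the mice aged 82, 72, 65, 71 and 83 days. Those mice bear the identifiers 3793543, 3805657, 3817948, 3805673 and 3793553, and values for single WT livers are given in this order. In these 5 libraries 3 reads corresponded to 0.129 to 0.284 CPM (counts scaled to a fixed library total), which is taken here as the floor of detection. Reads of the targeted gene matched the labels where it is expressed: the 20 WT skeletal muscle libraries had 105 to 521 Cdh15 reads and the 20 KO ones 13 to 72, while the 5 WT livers had 0 to 2 and the 5 KO livers 0. Outside the liver, 2 WT libraries stood apart by liver transcripts: the lung of mouse 3793543 had 59.9 CPM of albumin before normalisation and the kidney of mouse 3805673 28.6, against 0.0924 to 13.4 in the other 76 libraries outside the liver. Leaving out either one changed the numbers of genes called enriched or depleted below by 3 at most.

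Of 16842 genes tested, 6124 (36.4%) were higher in WT liver than the mean of the other 8 tissues and 7123 (42.3%) were lower at an adjusted p below 0.05 (edgeR quasi-likelihood test, Benjamini-Hochberg over all genes tested). Differences are given as log2 of liver over that mean, and their median over all genes tested was -0.20. With libraries scaled by their totals alone the median was -0.65, with 4289 genes higher and 9461 lower, so that the share of higher calls went from 46.2% to 31.2%. The median of each list below is therefore set against the median of all genes. Levels of 1 gene in different tissues are given in normalised CPM (CPM scaled by edgeR's trimmed mean of M-values), and levels of different genes are compared in RPKM, the reads scaled by gene length and library size that the authors deposited. The mean scaling factor in the WT fit was 0.773 for liver, 1.23 for kidney, 1.91 for spleen and 2.12 for lung. Folds of liver over lung and spleen, and less so over kidney, are therefore smaller with library totals than those given below. Errors are SD over mice for levels and SE for differences. The tissue is a mixture of cells, and more cells of a type cannot be told apart from more RNA per cell.

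A set of 622 genes (3.69% of those tested) was enriched in WT liver, meaning at least 4-fold higher than in every one of the other 8 tissues, at an adjusted p below 0.05 against each, with at least 1 CPM in liver. Another 380 genes (2.26%) were depleted, at least 4-fold lower in liver than in every other tissue with at least 1 CPM in each of those. The enriched genes took 46.2% ± 1.17 of all counts of WT liver (SD, n = 5, range 44.9 to 47.8%). The same genes took 2.02% of the counts in kidney, 1.97% in lung, 1.13% in spleen, 0.624% in heart and 0.340 to 0.403% in the 4 muscles. The set was selected by this contrast in these same WT libraries, so a gap between tissues was set by the selection. In the KO mice, which did not enter the selection, it took 46.5% ± 1.01 of liver counts, 2.10% in kidney and 1.965% in lung. The tissue that came closest to liver was kidney for 266 of the enriched genes, lung for 159, spleen for 68 and heart for 52, and 1 of the 4 muscles for the remaining 77. For the depleted genes the closest tissue was most often spleen, with 121 genes, or kidney, with 110. With libraries scaled by their totals alone 455 genes were enriched and 641 depleted.

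**Figure D1:**
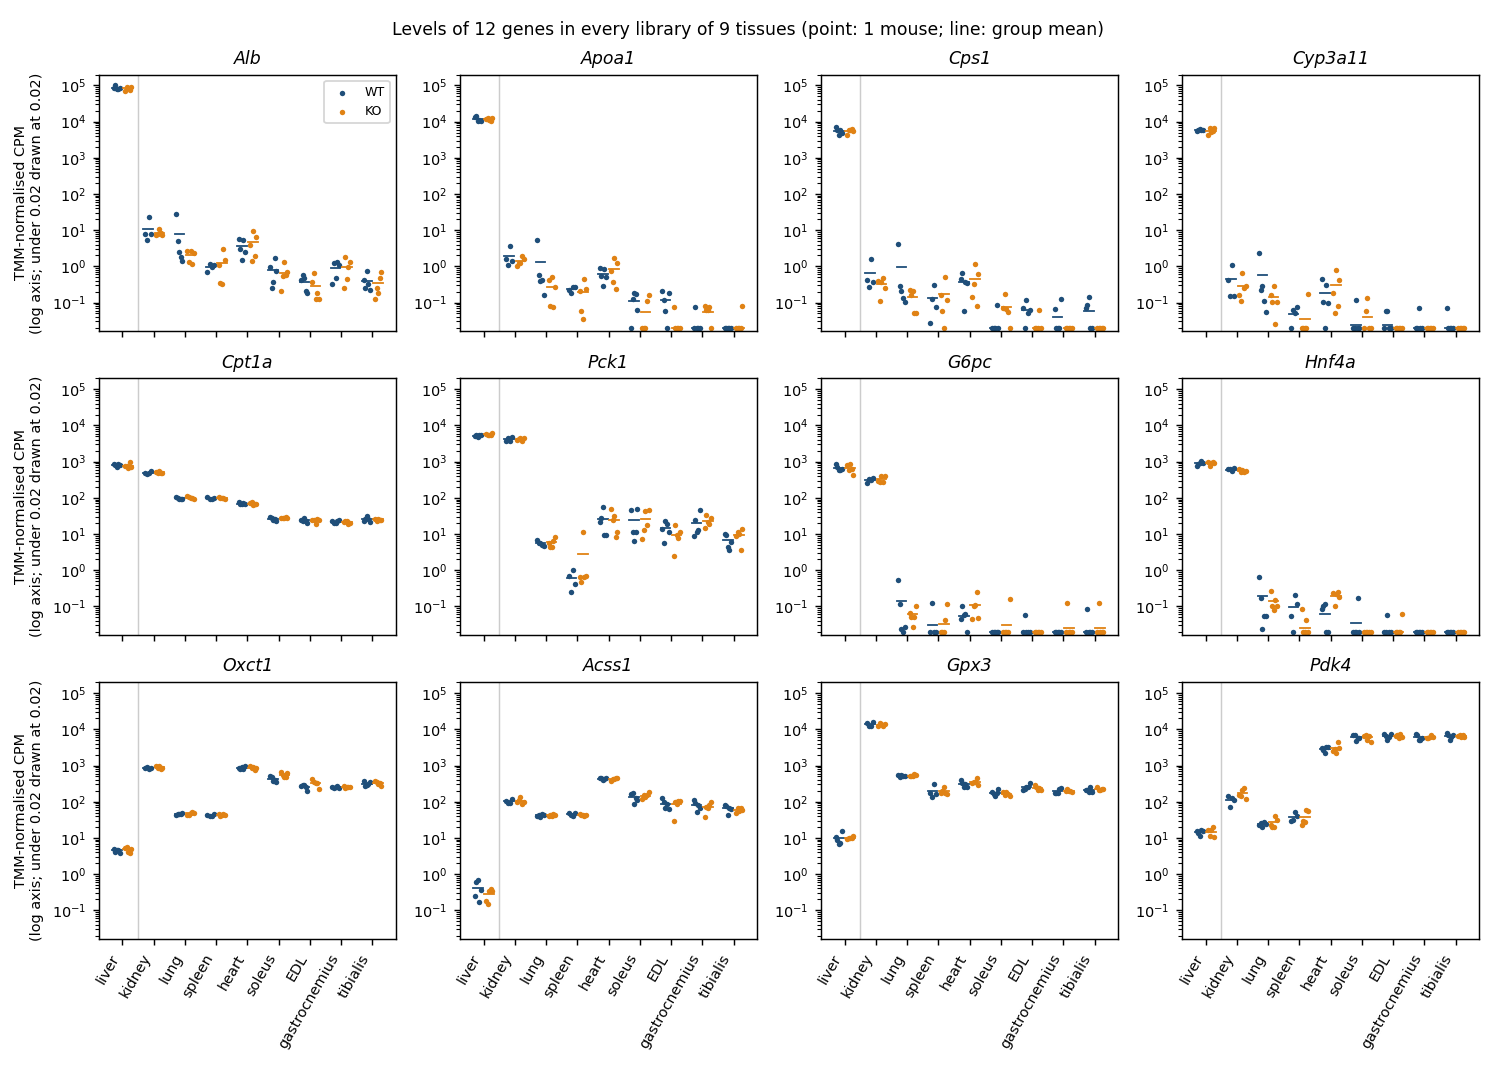
Normalised CPM of 12 genes (log axis, values under 0.02 drawn at 0.02) in every library of the 9 tissues, WT in blue and KO in orange, 1 point per mouse with the group mean as a line. Alb lies at 80317 or above in all 5 WT livers and at a mean of 11.1 in WT kidney, Pck1 is close in liver and kidney, and Oxct1, Acss1 and Gpx3 are lowest in liver.

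The list of carrier and export proteins of plasma was chosen, like the others, with earlier results of these data known. All 27 members were tested, all 27 were higher in liver and all 27 were enriched. Their median difference was 14.14, against -0.20 for all genes, and 11.65 when tissues without reads were set to the floor of detection. Alb (chr5:90460889-90476603 in mm10), which encodes albumin, the main protein of plasma, had the highest RPKM of any gene in liver at 32930 ± 2224. Its normalised CPM was 86888, 99992, 80317, 80864 and 83066 in the 5 WT livers, and 11.1 ± 8.18 in kidney, the next tissue (n = 4). The 5 livers lay within a narrow range of each other and far above every other tissue, with a mean 7779-fold above kidney, or 12246-fold without the 2 libraries that stood apart (kidney then at 7.04 ± 1.49), and Alb alone took 6.58% ± 0.444 of liver counts. Serpina3k, a serine protease inhibitor, followed at 8015 ± 927 RPKM, then Ttr, the carrier of thyroid hormone and retinol-binding protein, at 7418 ± 686, and Serpina1c, a form of α1-antitrypsin, at 6147 ± 384. Ttr also had a level in kidney, with 109.8 ± 11.9 normalised CPM there against 5558 ± 501 in liver. Cp, the copper-carrying ferroxidase ceruloplasmin, was the least restricted, 5.39-fold higher in liver (1487 ± 55.5) than in lung (276 ± 74.7).

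The 250 bases before the start site are shown for 2 highly expressed enriched genes. Each holds the letters of a motif of a hepatocyte transcription factor. That motif and any TATAAA, the letters of the TATA box, are set in capitals at whatever position they occur. The sequences are taken 5′ to 3′ on the gene's strand from RefSeq, build GRCm38.p6. Apoa2 is from chr1:171224804-171225053 on the plus strand, with a FOXA motif at -77 to -71 and the letters TATAAA at -212 to -207. Fabp1 (the fatty acid binding protein of hepatocyte cytosol) is from chr6:71199629-71199878 on the plus strand. It has a C/EBP motif at -174 to -166 and the letters TATAAA at -30 to -25.
Apoa2: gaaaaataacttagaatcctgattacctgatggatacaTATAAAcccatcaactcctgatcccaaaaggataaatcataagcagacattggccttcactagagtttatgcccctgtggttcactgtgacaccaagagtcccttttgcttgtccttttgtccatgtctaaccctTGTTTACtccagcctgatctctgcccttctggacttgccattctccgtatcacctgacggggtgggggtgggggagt
Fabp1: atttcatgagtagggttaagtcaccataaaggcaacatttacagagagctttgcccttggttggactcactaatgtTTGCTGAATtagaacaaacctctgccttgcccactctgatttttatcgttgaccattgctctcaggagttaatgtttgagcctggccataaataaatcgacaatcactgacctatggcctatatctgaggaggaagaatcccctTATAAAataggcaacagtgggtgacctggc

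The HNF4A, FOXA and C/EBP motifs were more frequent in the promoters of enriched genes than in those of all genes tested, searched on both strands from 250 bases before to 50 after each start. The HNF4A motif CAAAGTCCA occurred in 2.6% of 577 promoters, found for 466 of the 622 enriched genes, in 0% of the 365 promoters of depleted genes, in 0.512% of the 16596 promoters of all genes tested and in 0.475% of all 32851 promoters of the table. In the same order, the FOXA motif TGTTTAC occurred in 5.89%, 2.47%, 2.8% and 3.65%, and the C/EBP motif TTGCNNAAT in 5.2%, 0.822%, 1.86% and 2.4%. The TATA box TATAAA occurred in 17.5%, 8.77%, 8.54% and 13.6%, and the cyclic AMP response element TGACGTCA in 1.04%, 2.19%, 2.68% and 1.79%. No motif is contained in another. These are matches of letters in a short window and were not tested as binding sites.

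Of 23 genes of coagulation and fibrinolysis, 21 were higher in liver and 18 enriched, with a median difference of 12.63 (10.17 with the floor). The 3 fibrinogen chains led the list at 2269 ± 62.7 RPKM for Fga, 2096 ± 43.6 for Fgb and 1710 ± 40.8 for Fgg, followed by Serpinc1, the thrombin inhibitor antithrombin, at 1098 ± 46.4. Fgb had 4361, 4566, 4239, 4372 and 4059 normalised CPM in the 5 livers and 0.829 ± 0.433 in kidney. Genes that endothelial cells express were among the exceptions: Vwf, the platelet adhesion factor, was lower in liver (9.44 ± 0.722) than in lung (262 ± 31.1) and below the 8-tissue mean by a log2 difference of -1.54 (SE 0.14, adjusted p = 6.58e-13). Thbd, the thrombin receptor thrombomodulin, was depleted, with 3.49 ± 0.497 in liver against 17.5 in gastrocnemius, the lowest other tissue. F8, the antihemophilic factor of endothelium, was only 1.80-fold above kidney, and F13b was 2.99-fold above kidney.

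Complement showed a similar division. Of 23 genes, 22 were higher in liver and 16 enriched (median difference 6.35). C3, the central component, stood at 1630 ± 131 RPKM, Cfb (factor B of the alternative pathway) at 439 ± 42.8, C8g at 305 ± 14.8 and C4b at 248.5 ± 20.4. C3 was 15.6-fold higher in liver (10739 ± 643 normalised CPM) than in spleen (688 ± 97.7). The lectin-pathway gene Mbl2 had 341 ± 39.7 in liver and at most 0.0878 elsewhere, a fold of at least 1253. The C1q chains C1qa, C1qb and C1qc, which macrophages make, stood at 109 to 115 in spleen and at 29.2 to 31.8 in liver, although each was above the mean of the 8 tissues. C7, a component of the membrane attack complex, was the member below the mean: 1.34 ± 0.404 in liver against 103 ± 8.47 in lung (log2 difference -3.83, SE 0.22, adjusted p = 5.98e-19).

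All 23 genes of apolipoproteins and lipoprotein assembly were higher in liver and 20 were enriched (median difference 11.53, or 9.38 with the floor). Apoe, a ligand for lipoprotein uptake, had 14627 ± 854 RPKM, Apoa2 11840 ± 543, Apoa1, the main protein of high-density lipoprotein, 9507 ± 1180, and Apoc1 6512 ± 588. Apoa1 had 13506, 14393, 10215, 10888 and 10264 normalised CPM in the 5 livers and 1.95 ± 1.14 in kidney, a 6077-fold ratio with no overlap between tissues. Apob, the scaffold of very-low-density lipoprotein, had 10421 ± 652 in liver and 195 ± 44.6 in kidney. Mttp, which loads lipid onto it, had 545 ± 16.8 against 21.6 ± 4.37 in kidney. Pltp, the phospholipid transfer protein, was higher in lung (192 ± 15.04) than in liver (43.5 ± 11.51) and Abca1 was 1.88-fold above spleen.

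**Figure D2:**
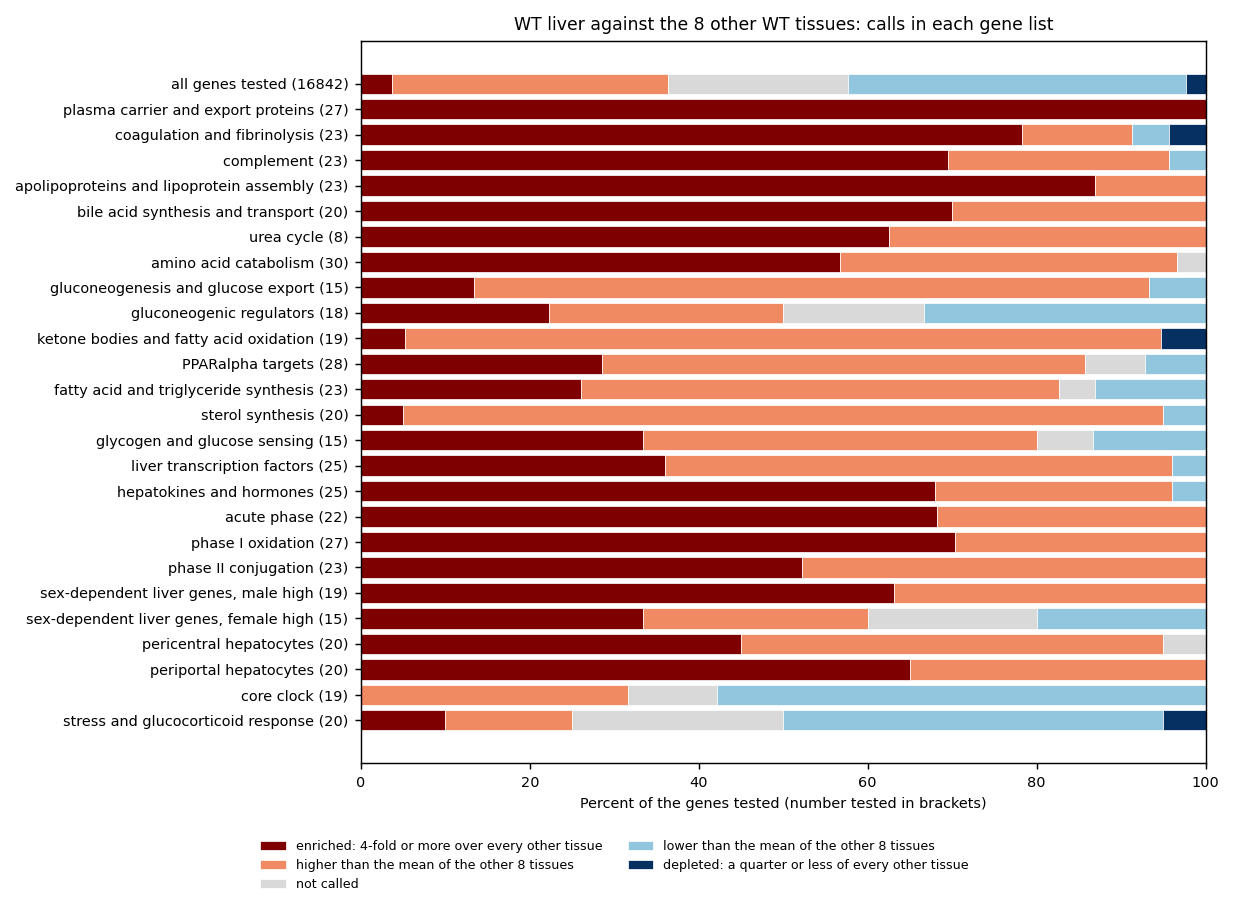
Calls in WT liver against the other 8 WT tissues for each gene list, as stacked bars of the percent of the genes tested (number in brackets): enriched, higher than the mean, not called, lower than the mean and depleted. The bar of plasma proteins is enriched throughout, gluconeogenesis and sterol synthesis are mostly higher but not enriched, and the clock list has more lower than higher genes.

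The 20 genes of bile acid synthesis and transport were all higher in liver, and 14 were enriched (median difference 10.47, or 8.65 with the floor). Cyp8b1, the sterol 12α-hydroxylase that sets the share of cholic acid, had 1164 ± 247 normalised CPM in liver and 0.285 ± 0.184 in lung. Slc27a5, which couples bile acids to coenzyme A, was 4598-fold above kidney (1156 ± 68.8), and Slc10a1, the sodium-dependent uptake carrier of hepatocytes, 2813-fold (730 ± 61.2). Abcb11, the bile salt export pump, had 531 ± 43.8 against at most 0.108 elsewhere, at least 1952-fold. Other members were shared with kidney or muscle: Abcc2, an organic anion exporter, was 2.34-fold above kidney, Nr1h4, the bile acid receptor FXR, 1.47-fold above kidney, and Abcb4, the phospholipid floppase, 2.38-fold above EDL. Cyp7a1, the rate-limiting enzyme of the pathway, differed widely between animals, with 446, 179, 65.6, 114 and 60.8 in the 5 WT livers, yet was at least 637-fold above every other tissue.

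All 8 urea cycle genes were higher in liver and 5 were enriched (median difference 10.42, or 9.08 with the floor). Cps1, which fixes ammonia in the first step, had 7045, 5820, 4229, 5708 and 4712 normalised CPM in the 5 livers and 0.975 in lung, the next tissue. Without the 2 libraries that stood apart heart was next at 0.373 ± 0.216, and the fold was 14738 in place of 5642. Per length, Ass1 was the most abundant at 1564 ± 190 RPKM, followed by Arg1 at 985 ± 138, Cps1 at 777 ± 142 and Asl at 547 ± 142. Ass1, which makes argininosuccinate, was shared with kidney, where it reached 1648 ± 248 normalised CPM against 3209 ± 488 in liver. Arg1, which releases urea, had 1761 ± 284 in liver and 1.57 ± 0.928 in lung. Otc was 1365-fold above lung.

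Of 30 genes of amino acid catabolism, 29 were higher in liver, 17 were enriched and none was lower (median difference 10.89, or 9.62 with the floor). Bhmt, which remethylates homocysteine, led at 3739 ± 1630 RPKM, then Mat1a, the liver's methionine adenosyltransferase, at 1816 ± 544, Hpd of tyrosine breakdown at 1667 ± 310 and Tdo2 of tryptophan breakdown at 1117 ± 168. Both Bhmt and Mat1a differed between the WT livers: Bhmt had 14944, 11604, 6123, 6505 and 5619 normalised CPM and Mat1a 11084, 9493, 4693, 7394 and 6808. The livers of mice 3793543 and 3805657 were the highest for both genes. Gls2, the liver glutaminase, was 949-fold above lung (408 ± 52.5), and Tat, the tyrosine aminotransferase, 1640-fold above lung (1737 ± 177). Several enzymes stood at like levels in kidney: Aass of lysine breakdown was 0.994-fold the kidney level and Prodh of proline breakdown 1.07-fold. Dao, the D-amino acid oxidase, was the member not called, with 0 to 0.0900 in the livers and 225 ± 18.7 in kidney.

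The genes of gluconeogenesis and glucose export were higher in liver than the mean of tissues but were largely shared with kidney. Of 15 genes, 14 were higher, 1 lower and only 2 enriched (median difference 3.87). Pck1 (chr2:173153073-173159253), the cytosolic enzyme that commits oxaloacetate to glucose, had 5101, 5343, 4914, 5289 and 5486 normalised CPM in the 5 livers and 4170 ± 557 in kidney (n = 4), a ratio of 1.25. The log2 difference from the 8-tissue mean was 8.09 (SE 0.27, adjusted p = 1.81e-25), with spleen at 0.599. G6pc, the last step before glucose release, had 883, 733, 574, 598 and 626 in liver and 313 ± 36.1 in kidney, and Fbp1 had 917 ± 119 and 664 ± 53.3. Per length, Pck1 stood at 1572 ± 98.2 RPKM, Fbp1 at 547 ± 63.3, Ldha, which converts lactate to pyruvate, at 539 ± 66.5 and Mpc2 of the mitochondrial pyruvate carrier at 239 ± 14.7.

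The 2 enriched members feed the pathway with substrate. Aqp9, the hepatocyte channel for glycerol, had 475 ± 20.6 normalised CPM in liver and 2.58 ± 0.977 in spleen, and Gpt, the alanine aminotransferase, 275 ± 20.6 in liver and 25.4 ± 2.91 in soleus. Pck2, the mitochondrial form of the Pck1 enzyme, was the member below the mean: 2.29 ± 0.721 in liver against 25.6 ± 5.46 in spleen and 5.13 in gastrocnemius, the lowest other tissue (log2 difference -2.04, SE 0.15, adjusted p = 5.8e-16). Gyk, which phosphorylates glycerol, was higher in kidney (445 ± 116) than in liver (219 ± 33.1).

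Regulators of the pathway did not share 1 direction: of 18 genes 9 were higher, 6 lower and 4 enriched, with a median difference of 0.26. Scaling by library totals gave 8 higher and 9 lower with a median of -0.18. The enriched ones were Gcgr, the glucagon receptor (299 ± 8.85 in liver, 15.1 ± 1.70 in kidney), Creb3l3, a membrane-bound factor of the fasted liver (428 ± 28.6 against 1.73 ± 1.099 in kidney), Cebpa (288 ± 12.2 against 47.5 ± 5.74 in lung) and Onecut1, a factor of hepatocyte identity whose adjusted p by the DESeq2 Wald test was 0.0501. The liver also held Hnf4a at 911 ± 90.3, 1.51-fold above kidney. The 6 genes below the mean were Irs1, Foxo3, Foxo6, Ppargc1a, Creb1 and Nr3c1, with log2 differences from -4.06 for Foxo6 to -0.31 for Irs1. The call of Irs1, a docking protein of the insulin receptor, was lost without mouse 3793543 (-0.24) or mouse 3805657 (-0.20) and turned to 0.50 with the 4 muscles averaged into 1 tissue, where that of Nr3c1, the glucocorticoid receptor, was lost (-0.11). Ppargc1a, the coactivator of mitochondrial biogenesis, had 13.5 ± 4.62 in liver and 98.0 ± 9.23 in heart.

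Of 19 genes of fatty acid oxidation and ketone bodies, 18 were higher in liver (median difference 1.89), but most were within a few-fold of heart or kidney, and 1 was enriched. Oxct1 (chr15:4026428-4155344), the enzyme that other tissues need to use ketone bodies, was the 1 depleted member, with 5.06, 4.14, 4.69, 4.75 and 3.87 normalised CPM in the livers. The lowest other tissue for Oxct1 was spleen at 42.7 and the highest kidney at 871 ± 39.8 (log2 difference -5.76, SE 0.11, adjusted p = 1.29e-37). No liver came near any other tissue. Per length, Oxct1 stood at 0.987 ± 0.102 RPKM in liver.

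Fatty acid entry into the pathway was also higher in liver. Acsl1, which activates fatty acids, had 559 ± 53.4 RPKM, and Acaa2, the thiolase of the last oxidation step, 537 ± 34.4. Cpt1a, the gate for import into mitochondria, had 802 ± 57.5 normalised CPM in liver, 486 ± 34.9 in kidney and 21.8 in gastrocnemius, a log2 difference of 3.82 (SE 0.05). Core enzymes of the mitochondrial spiral stood at higher levels in heart: Acadm, which takes medium chains, had 969 ± 48.8 there against 680 ± 59.2 in liver, and Hadhb of the trifunctional protein 1544 ± 76.4 against 450 ± 41.9.

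Among 28 targets of PPARα, 24 were higher in liver, 2 lower and 8 enriched (median difference 4.17). Fabp1 had 5608 ± 1215 RPKM, and the fatty acid ω-hydroxylases Cyp4a14 1990 ± 581 and Cyp4a10 1468 ± 415. Cyp4a14 had 8879, 6913, 3466, 7018 and 6285 normalised CPM in the 5 livers and 378 ± 215 in kidney. Ehhadh, a peroxisomal oxidation enzyme, was only 1.36-fold above kidney (1571 ± 421). Ppara itself had 421 ± 59.9 in liver and 162 ± 19.8 in kidney. Fgf21, the hormone that liver secretes in a fast, was enriched but low and variable, with 8.72, 2.66, 2.38, 3.59 and 5.22 in the livers against 0.210 ± 0.0425 in spleen.

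The 2 PPARα targets below the mean are better known from muscle. Pdk4, the kinase that closes pyruvate dehydrogenase, had 15.9, 13.8, 11.2, 17.0 and 15.8 normalised CPM in the livers, 23.8 in lung, the lowest other tissue, and 6643 ± 1107 in tibialis (log2 difference -5.94, SE 0.19, adjusted p = 7.68e-29). Ucp3, a mitochondrial carrier of muscle, had 0 to 0.0680 in the livers, under the floor of detection, and 440 ± 65.4 in tibialis.

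Of 23 genes of fatty acid and triglyceride synthesis, 19 were higher in liver, 3 lower and 6 enriched (median difference 1.45). The desaturases stood out: Scd1, which makes oleate, had 509 ± 149 RPKM and was 4.45-fold above lung, and Fads1 and Fads2, which make polyunsaturated fatty acids, were 5.32-fold above lung and 4.89-fold above kidney. Elovl5 (172 ± 40.3 RPKM) and Agpat2 (150 ± 10.3) were also enriched. Fasn, the fatty acid synthase, was 126 ± 13.6 normalised CPM in liver and 234 ± 30.7 in lung, and Acly, which supplies its acetyl-CoA, 114 ± 13.4 in liver and 129 ± 8.84 in kidney. The 3 members below the mean were Acacb (64.4 ± 6.59 against 804 ± 63.0 in gastrocnemius), Lpin1, a phosphatidate phosphatase (106 ± 46.5 against 1160 ± 123), and Pnpla3, which was under 1 in every liver. With the 4 muscles averaged into 1 tissue the differences of Acacb and Lpin1 became 0.01 and 0.21 and neither was called.

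Sterol synthesis was higher in liver throughout the pathway but by small factors: 19 of 20 genes were higher, 1 lower and 1 enriched (median difference 1.85). Insig2, which holds the sterol sensor in the endoplasmic reticulum, was the enriched one, with 479 ± 62.6 normalised CPM against 60.02 ± 3.29 in soleus. Hmgcs1, the cytosolic synthase of the pathway, had 171 ± 26.3 in liver against 434 ± 110 in kidney. Mvd was below the mean, with 3.79 ± 1.20 in liver and 23.1 ± 2.58 in kidney.

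Of 15 glycogen and glucose-sensing genes, 12 were higher, 2 lower and 5 enriched (median difference 4.24, or 1.67 with the floor). Enriched genes were Pygl, the liver glycogen phosphorylase (414 ± 32.2 normalised CPM, 18.0-fold above lung), Gys2, the liver glycogen synthase (21.6-fold above kidney), Ppp1r3b, a glycogen-targeting phosphatase subunit (15.1-fold above heart), and Gckr (at least 541-fold). The gene with the symbol Pgm1 in these data was low, with 3.56 in liver and 11.9 in lung, the highest other tissue. It was below the mean (log2 difference -0.33, adjusted p = 0.0225), a call that was lost without mouse 3805657 (-0.26) or mouse 3817948 (-0.20).

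Where a step has a form known from liver and a counterpart known from muscle or other tissues, liver held the liver form almost throughout. Over 19 pairs, the liver form took more than 50% of the summed RPKM of the pair in WT liver in 18, and more than 95% in 15. It took under 10% in all 4 muscles in 16 of the 19. The exceptions in muscle were Cox7a2 of cytochrome c oxidase over Cox7a1, at 33.1 to 41.0%, Ldha over Ldhb, at 74.6 to 96.9%, and Arg1 over Arg2, at 66.7 to 94.9% of very low levels. Acaca, at 47.1% ± 2.94 of the acetyl-CoA carboxylases, was the pair without a liver majority.

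Only 4 of the 19 liver forms were the majority in no other tissue. These were Pklr of pyruvate kinase at 85.3% ± 2.33 in liver and 16.9% in kidney, Gys2 of glycogen synthase at 98.6% ± 0.359 and 28.9% in kidney, Gls2 of glutaminase at 99.4% ± 0.0933, and Mat1a of methionine adenosyltransferase at 98.6% ± 0.582. Kidney also had a majority of the liver form for Fbp1 (98.6%), Cpt1a (91.5%) and Slc2a2 (89.0%).

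**Figure D3:**
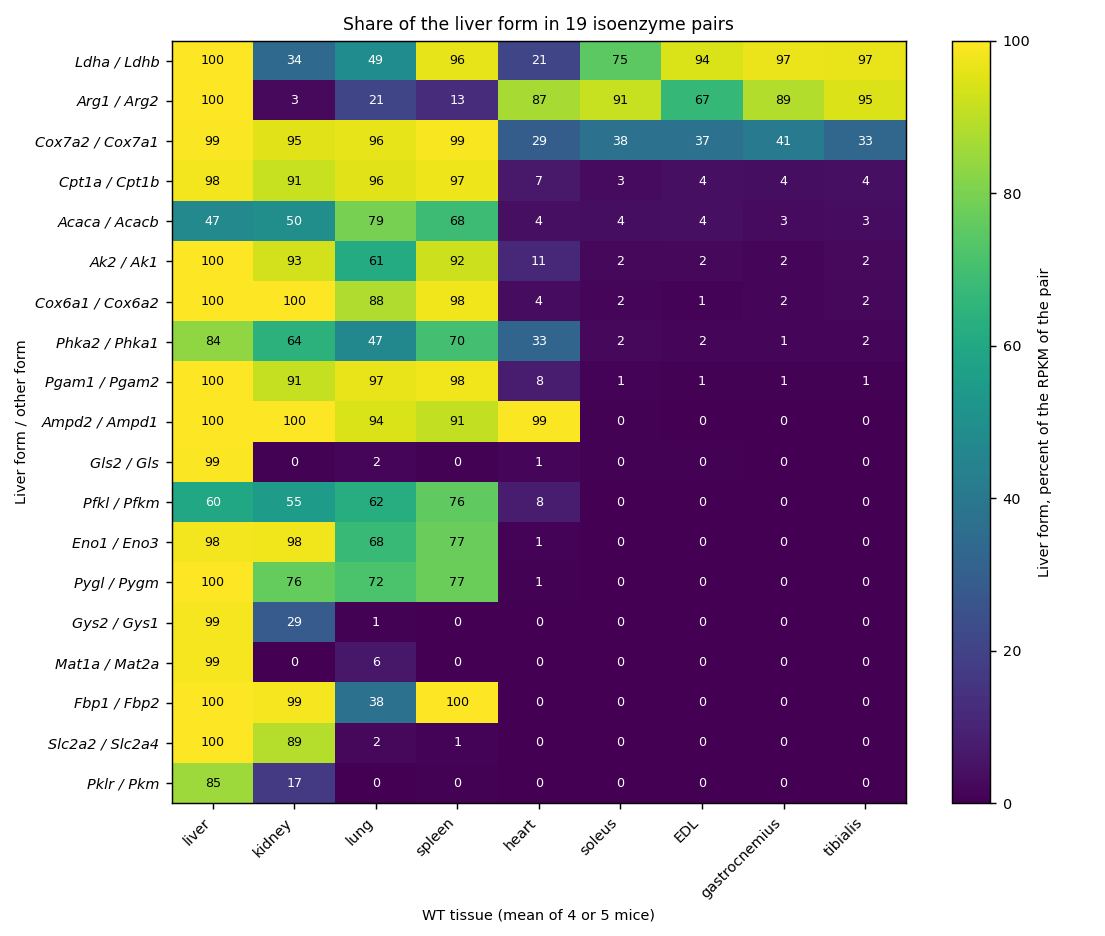
Share of the liver form in the summed RPKM of each of 19 pairs (percent, colour scale and printed values), as the mean over the mice of each WT tissue (columns). The liver column is highest for most pairs and lowest for Acaca at 47%, and the columns of the 4 muscles are under 10% for 16 pairs.

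Of 25 liver transcription factors, 24 were higher in liver and 9 enriched, with a median difference of 8.13, or 5.27 with the floor. Hnf4a was the most abundant per length at 164 ± 21.4 RPKM, then Creb3l3 at 143 ± 13.1, Nr1i3, the xenobiotic receptor CAR, at 140 ± 5.50, and Cebpa at 83.5 ± 3.25. Nr1i3 was 1075-fold above kidney, Onecut2 886-fold above spleen and Foxa3 359-fold above lung. Lung expressed Foxa1 more, with 23.8 ± 0.586 normalised CPM against 15.5 ± 2.40 in liver. Zhx2, a repressor of fetal liver genes, was the 1 member below the mean (log2 difference -0.68, SE 0.07, adjusted p = 1.4e-11).

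Hormones and secreted regulators made by liver followed: 24 of 25 were higher and 17 enriched (median difference 6.58, or 6.33 with the floor). Sepp1, the selenium carrier selenoprotein P, had 3140 ± 172 RPKM, Hamp, the iron hormone hepcidin, 821 ± 227 and Igfbp4 556 ± 19.5. Igf1, the main growth factor of the growth hormone axis, had 673 ± 57.0 normalised CPM in liver and 41.9 ± 9.30 in spleen. Igfbp1, a binding protein that insulin represses, had 256, 103, 57.2, 68.7 and 85.7 in the livers, highest in mouse 3793543. Lepr, the leptin receptor, was below the mean, with 6.72 ± 1.85 in liver and 55.9 ± 6.36 in lung.

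All 22 acute phase genes were higher in liver and 15 were enriched (median difference 8.54, or 6.29 with the floor). Hp, the hemoglobin scavenger haptoglobin, had 2738 ± 509 RPKM and Hpx, the heme carrier, 1926 ± 140. The members ranged widely in level. Saa1 of serum amyloid A had 87.96, 46.0, 60.2, 41.1 and 20.3 normalised CPM in the livers, and the means were 17.6 for Saa2, 457 for Orm1 and 550 for Serpina3n. Crp was at least 1124-fold above every other tissue.

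Oxidising and conjugating enzymes of drugs and steroids were among the largest differences. All 27 genes of phase I oxidation were higher in liver and 19 enriched (median difference 11.35, or 9.85 with the floor). Cyp2e1, which oxidises ethanol, had 4704 ± 243 RPKM, Cyp3a11, a main drug-oxidising P450, 2249 ± 183, Cyp2d9 1129 ± 58.9 and Aldh2 of acetaldehyde removal 858 ± 77.2. Cyp3a11 had 5901 ± 403 normalised CPM in liver and 0.590 ± 0.947 in lung, about 10006-fold. Without the 2 libraries that stood apart the next tissue was kidney at 0.240 ± 0.149, and the fold 24609. Cyp1a2 was at least 1356-fold above every other tissue. Cyp2f2, shared with airway cells, was 1.03-fold above lung. Genes of the Cyp2c, Cyp2d and Cyp3a clusters are near copies, so how the reads were divided among them is uncertain.

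All 23 genes of phase II conjugation were higher and 12 enriched (median difference 9.70, or 7.44 with the floor). Gstp1 had 1961 ± 113 RPKM, Gstm1 801 ± 138, Gsta3 761 ± 99.8 and Ugt2b5 564 ± 43.4. Ugt1a1, which conjugates bilirubin, was 715-fold above kidney (771 ± 64.4 normalised CPM). Kidney exceeded liver for Ugt3a2 (979 ± 63.3 against 528 ± 33.7), Glyat (382 ± 21.7 against 259 ± 22.2) and Nat8 (132 ± 10.6 against 4.91 ± 0.557).

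By the fitted difference from the nearest tissue, the 12 enriched genes that ranked first were Mup17, Mup11 and Mup14 of the major urinary proteins, the apolipoprotein genes Apoc4 and the read-through Apoc4-apoc2, the P450 genes Cyp1a2, Cyp2c50, Cyp3a11, Cyp2c29 and Cyp3a25, the protease inhibitor Mug2 and the carboxylesterase Ces3a. For genes with few or no reads elsewhere this rank depends on how the fit treats counts of 0, so it is not the order of the ratios of levels, by which Alb, for example, exceeds the bound for Mup17. Mup17 had 794 ± 145 normalised CPM in liver and no read in any of the 38 other WT libraries, at least 2920.0-fold. Mup genes are near copies and their reads may have been shared between them.

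Genes known to differ between male and female liver were measured in males only. All 19 male-high genes were higher in liver than in the other tissues and 12 were enriched, led by Mup3 (9086 ± 533 RPKM), Serpina1e (6180 ± 1355), Mup20 (5897 ± 1234) and Gstp1. Of 20 female-high genes 15 could be tested, 9 of which were higher, 3 lower and 5 enriched. The enriched ones were Cyp4a14, which alone made up most of the list's summed 3583 to 9061 normalised CPM, Cyp2c69 (13.8 ± 1.77), Cyp2c40 (8.75 ± 3.28), Cyp3a41a (3.44 ± 0.517) and Cyp3a44 (2.86 ± 1.38). The median RPKM of the female-high list was 0.658 against 142 for the male-high list. Cyp2b13, Sult2a1 and A1bg were at or under 0.180 normalised CPM in every WT liver and Sult3a1 had no read in any. Fmo2, Trim24 and Prom1 were below the 8-tissue mean, the call of Trim24 being lost with the 4 muscles averaged (-0.15).

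Genes of both zones of the liver lobule were represented. Of 20 periportal genes, 20 were higher and 13 enriched (median difference 12.56, or 10.22 with the floor). Of 20 pericentral genes, 19 were higher and 9 enriched (4.51, or 4.24 with the floor). Among pericentral genes Cyp2e1, Aldh1a1 (519 ± 18.3 RPKM), Oat (349 ± 63.2) and Cyp2c29 (337 ± 40.9) were the most abundant. Glul, the glutamine synthetase of the cells around the central vein, had 927 ± 45.8 normalised CPM in liver but 1279 ± 386 in EDL, and Lgr5, a Wnt co-receptor of the same cells, 5.89 ± 0.355 against 0.712 ± 0.231 in kidney. Of the periportal genes without an earlier mention, Pigr, which carries IgA into bile, was 12.7-fold above kidney and Hsd17b13, of lipid droplets, 3007-fold above heart.

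The clock and stress genes went in both directions. Over all genes tested, 36.4% were higher and 42.3% lower with a median of -0.20, close to that of the stress list. Of 19 core clock genes, 6 were higher, 11 lower and none enriched (median difference -0.35). Library totals gave 4 higher and 13 lower, but also moved the median of all genes to -0.65. Averaging the 4 muscles into 1 tissue gave 7 higher and 4 lower with a median of 0.04. The direction of the clock list thus changed with the weight given to muscle. Arntl, the partner of CLOCK, had 26.4 ± 2.09 normalised CPM in liver and 86.1 ± 27.3 in gastrocnemius, Nr1d1, a clock repressor, 43.6 ± 6.06 in liver and 234 ± 26.5 in gastrocnemius, and Usp2 8.61 ± 2.78 against 140 ± 24.4 in soleus. Of 20 stress and glucocorticoid response genes, 5 were higher, 10 lower, 2 enriched and 1 depleted (median difference -0.19), and with the muscles averaged 9 were higher and 7 lower. The enriched ones were Tat and Trib3 (11.3 ± 1.83 against 2.71 ± 1.22 in soleus). Ddit4, an inhibitor of mTOR signalling, had 11.7 ± 1.66 in liver against 149 ± 27.1 in gastrocnemius.

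Txnip (chr3:96557957-96561857), an inhibitor of glucose uptake whose transcription follows glucose, was the depleted member of the stress list. It had 106, 55.0, 45.02, 88.6 and 90.3 normalised CPM in the WT livers, while the lowest other tissue, kidney, had 349 and the highest, EDL, 1647 ± 426 (log2 difference -3.56, SE 0.20, adjusted p = 2.98e-19). Every liver was below the mean of every other tissue.

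The 12 depleted genes with the smallest ratio to the next tissue were Acss1, Ly6c1, Setbp1, Limch1, Ackr3, Clic5, Svep1, Gpx3, Thbs1, Ampd3, Ddr1 and Crispld2. Acss1 (chr2:150618111-150668240), the mitochondrial enzyme that turns acetate into acetyl-CoA, had 0.253, 0.591, 0.680, 0.174 and 0.360 normalised CPM in the livers, 42.1 in lung, the lowest other tissue, and 432 ± 31.2 in heart. Its cytosolic counterpart Acss2 was higher in liver than the mean of tissues (85.5 ± 6.52, log2 difference 1.35, SE 0.07). Gpx3, the secreted glutathione peroxidase that kidney supplies to plasma, had 10.9, 8.98, 6.66, 7.01 and 15.5 in the livers, 178 in soleus and 13936 ± 1571 in kidney. Gpx3 was named for being among the most depleted genes, so its contrast with the 27 enriched carrier and export proteins was set by selection. Ampd3, an AMP deaminase, had 0.973 ± 0.246 in liver against 15.2 in spleen. Ly6c1 has close paralogues, so its reads may have been divided.

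The mitochondrial genome contributed 6 of the 12 transcripts of highest RPKM in liver: COX1 (16114 ± 1757), ATP6 (15897 ± 1307), COX3 (10410 ± 798), COX2 (10319 ± 609), CYTB (9185 ± 856) and ND4 (7718 ± 861), which encode subunits of the respiratory chain and ATP synthase. The other 6 were Alb, Apoe, Apoa2, Apoa1, Mup3 and Serpina3k. In normalised CPM COX1 was lower in liver (32661 ± 4196) than in heart (108050 ± 3895) and higher than in lung (5274). COX3 and COX2 were below the 8-tissue mean, with log2 differences of -0.27 (adjusted p = 0.00079) and -0.42 (adjusted p = 0.00477), and the other 4 were not called. These calls depended on muscle and on scaling. With the 4 muscles averaged COX3 was higher in liver by 0.23 (adjusted p = 0.00317) and COX2 was not called, whereas with library totals the other 4 were called lower too, by log2 differences of -0.54 for CYTB to -0.64 for ATP6.

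Markers of other cell types in WT liver were present at levels that differed by type. The summed level of 13 Kupffer cell markers ran from 449 to 648 normalised CPM over the 5 livers, that of 12 sinusoidal endothelial markers from 370 to 508, of 12 stellate cell markers from 383 to 465 and of 10 bile duct markers from 49.8 to 63.4. In the same order, 11, 10, 8 and 7 of these markers were above the 8-tissue mean and 0, 1, 3 and 2 below it. Enriched were 2, 2, 1 and 0, and 5, 3, 4 and 1 had their highest level in liver. The bile duct calls rest on low levels: 5 of those 10 markers were under 1 normalised CPM in liver. The median difference of that list was 1.38, but -0.09 with the floor. Pdgfrb of the stellate cell list was depleted. Clec4f, specific to Kupffer cells, was 357-fold above heart (76.1 ± 11.6), Clec4g and Oit3 of sinusoidal endothelium 5.75-fold and 5.54-fold above spleen, and Colec10 of stellate cells 271-fold above lung. Pecam1, a marker of all endothelium, was lower in liver (24.1 ± 2.23) than in any other tissue, with gastrocnemius next at 59.1. Markers of other organs differed by organ: skeletal muscle markers summed to 1.22 to 1.63, with Myh4, Myh1, Myh2, Tnnt3 and Pvalb at 0 in all 5 livers, and kidney tubule markers to 1.26 to 8.28, with Aqp2 at 0. Heart markers summed to 3.06 to 18.0, fat cell markers to 16.6 to 18.4 with Lep at 0, lymphocyte markers to 6.05 to 8.73, lung markers to 55.1 to 72.6, nearly all of it Hopx, markers of pancreas and gut to 89.8 to 111.5, mostly Fabp2, a fatty acid binding protein (91.8 ± 8.81, enriched), with Prss1, Cela3b, Pnlip and Amy2a5 at 0, and red cell markers to 416 to 678. Their part in the results was not tested.

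The 5 WT livers resembled each other closely for most genes. Over the 7898 genes with a mean of at least 10 normalised CPM, the median SD of log2 level between mice was 0.115 and the 90th percentile 0.219. The 10 genes of largest spread were Hba-a1, Nutf2-ps1, Hba-a2, Cyp2b10, Bcl6, Mt2, Cyp7a1, Mt1, Amd2 and Hsd3b5, of which 4 belong to near-identical copies. Hba-a1 and Hba-a2 together ran only from 293 to 537 (log2 SD 0.314), Nutf2 with Nutf2-ps1 from 23.4 to 29.1 (0.126) and Amd1 with Amd2 from 45.9 to 61.1 (0.149), so single copies varied more than their sums.

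The remaining 6 genes of large spread were not summed with any related gene, and whether their reads were divided with such genes was not checked. Cyp2b10, a P450 induced through CAR, had 20.7, 23.6, 12.8, 2.26 and 3.06 normalised CPM in the 5 WT livers. Mt1 and Mt2, the metal-binding metallothioneins, had 246, 301, 98.3, 125 and 39.2 and 136, 188, 65.1, 79.8 and 21.3, with the same order of mice in both. Bcl6, a repressor controlled by growth hormone, had 12.3, 11.46, 71.3, 10.7 and 41.9, and Hsd3b5, a male-high steroid dehydrogenase, 16.1, 20.6, 118, 28.4 and 36.6. Both were highest in mouse 3817948, followed by mouse 3793553. Cux2, a female-high repressor, had its lowest levels in those same 2 livers, with 5.18, 2.72, 0.136, 3.42 and 0.450. With 5 animals no correlation was computed.

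**Figure D4:**
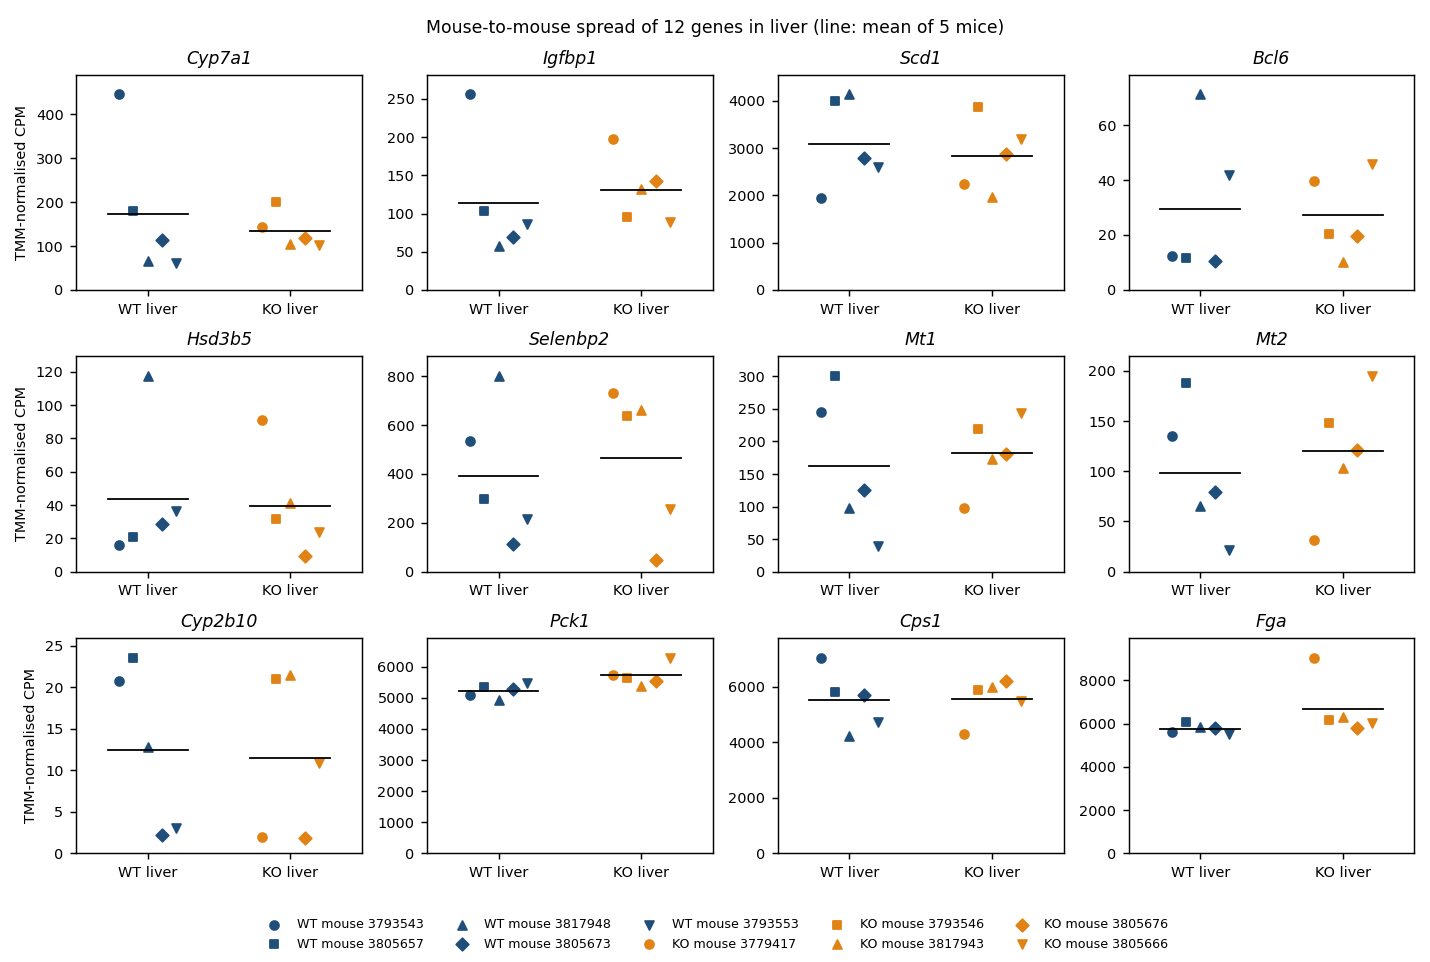
Normalised CPM of 12 genes in the 5 WT livers (blue) and the 5 KO livers (orange), 1 symbol per mouse with the mean as a line, on axes that start at 0. Cyp7a1, Bcl6, Mt1, Mt2, Cyp2b10 and Hsd3b5 scatter widely between mice of both genotypes, whereas Pck1 lies close to its mean.

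The KO mice repeated the comparison. Of 16710 genes tested in KO, 6191 (37%) were higher in liver than the mean of the 8 tissues and 7151 (42.8%) lower, 612 (3.66%) were enriched and 393 (2.35%) depleted. Of the 622 genes enriched in WT liver 593 (95.3%) were enriched in KO liver, which is 96.9% of the KO set. Of the 380 depleted genes 332 (87.4%) were depleted in KO, 84.5% of that set. Among 13175 genes called in WT and tested in KO, 12589 (95.6%) were called in the same direction and 1 in the opposite direction. Over the 16639 genes tested in both, the median absolute difference between the log2 contrasts was 0.0960. The KO mice are other animals than the WT mice, so these values are a repeat rather than a reuse of libraries.

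**Figure D5:**
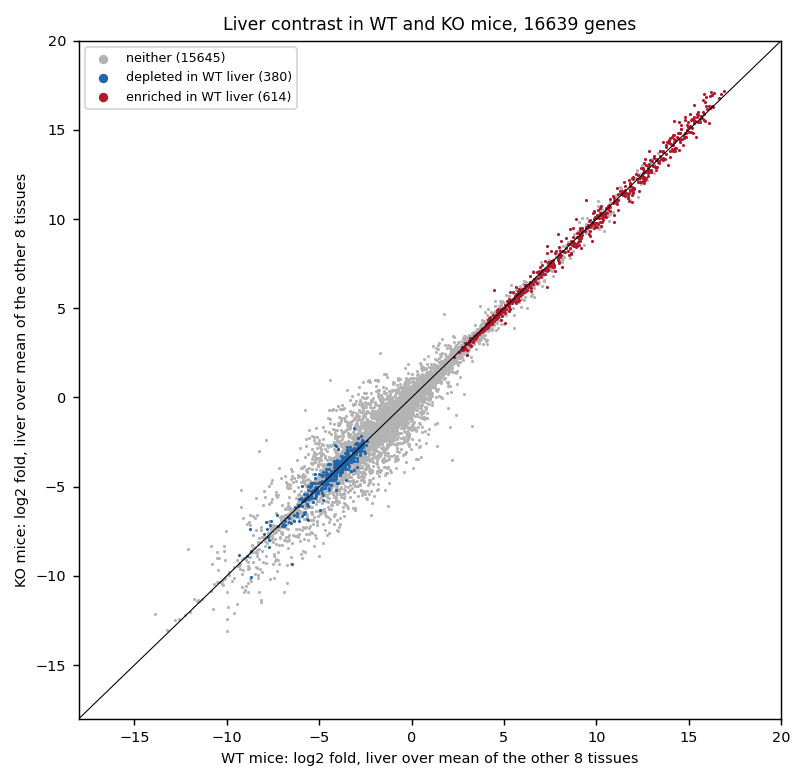
Log2 difference of liver over the mean of the other 8 tissues in KO mice (vertical) against WT mice (horizontal), 1 point per gene for the 16639 genes tested in both, with genes enriched (red) or depleted (blue) in WT liver. The points follow the line of equality, with a median absolute difference of 0.0960.

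Among the livers alone no gene was called between KO and WT: 0 of 12357 tested (0%) at an adjusted p below 0.05 by edgeR and 0 by DESeq2, with 194 and 142 genes at an unadjusted p below 0.05. The 5 genes of smallest p were Amn1, Rpl30, Hipk2, Zfp36l2 and Smyd5, with log2 differences of KO over WT from -0.78 for Rpl30 to 0.41 for Zfp36l2 and an adjusted p of 1 for each. Amn1 had 5.18, 5.08, 4.35, 5.74 and 5.04 normalised CPM in the WT livers and 3.53, 3.84, 2.78, 3.48 and 3.12 in the KO livers. The groups did not overlap for Amn1, but its difference of -0.59 (SE 0.14) did not pass the adjustment. Pck1 had 5227 ± 222 in WT and 5717 ± 345 in KO, and Alb 86225 ± 8118 and 83201 ± 10541.

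The liver contrast also did not differ between genotypes past the test, with 0 of 17151 genes (0%) called for the interaction by edgeR and 436 at an unadjusted p below 0.05. Leaving out 1 mouse at a time gave 0 to 2 calls: 2 without WT mouse 3793543 and 1 each without WT mice 3793553, 3805673 and 3817948 and KO mouse 3793546. The 5 genes of smallest p were Nutf2 (log2 difference -1.48, SE 0.30, adjusted p = 0.101), Pcdhgb5, Tnni3, Rgs16 and 8030423F21Rik, the last 4 with adjusted p from 0.157 to 0.962. Nutf2 had 2.28, 28.7, 5.03, 5.74 and 3.87 in the WT livers and 2.61 to 3.76 in the KO livers with 1 WT liver, that of mouse 3805657, apart from all others, and the sum with its copy Nutf2-ps1 was 23.4 to 29.1 in WT and 26.7 to 30.3 in KO. Rgs16, a regulator of G protein signalling, was high in 1 KO liver, mouse 3805666, at 107 against 5.82 to 23.7 in the other 4 and 8.98 to 19.9 in WT.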

How the data were processed

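RNA-seq of polyadenylated RNA (MagMax extraction and a KAPA stranded mRNA kit, per the labels' protocols) gave 1 table of 24475 rows by 88 libraries. Its values are expected counts per gene deposited by the authors, of which 85.55% were whole numbers, and they were rounded for the tests. The RPKM values were also deposited by the authors and equal the counts scaled by gene length and library total. The build was mm10 per the submitters' processing notes. The aligner, the counter and the use of strand are not given in the sources used here, so overlapping antisense genes cannot be separated. The 22 rows that hold markers rather than genes (0 to 0.0323% of counts) were left out, which left 24453 genes.

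Tests used edgeR 4.0.16 in R 4.3.3 (TMM scaling, filterByExpr with a minimum count of 10, robust quasi-likelihood fit, Benjamini-Hochberg adjustment at 0.05), fitted to the 43 WT, the 45 KO or all 88 libraries, or to the 10 livers. The scripts were tested on simulated data. A fold over tissues under 3 reads per library is a bound that uses the highest such floor of the 8 tissues, and list medians "with the floor" raise lower levels to it. The members and the 37 gene lists were chosen with earlier results of these data known. Named genes could be any member of a list or isoform pair, first those of highest RPKM and those against their list's direction. Outside the lists they were the 12 genes most enriched, most depleted or of highest RPKM, the 10 of largest spread between WT livers, and the 5 of smallest p in each comparison of genotypes. Promoters were taken in order of RPKM among enriched genes, passing over those without an entry or a motif match, and 2 are shown. Some genes, pairs and motifs are not reported here.

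The replicate is the mouse. Mouse numbers in the labels tie the tissues of an animal together, so they pair the samples. Over 11232 genes the mean correlation of deviations from the group means was 0.0297 between liver and another tissue of the same WT mouse (5 of 38 pairs above 0.1), -0.00737 between different WT mice, and 0.0469 and -0.0117 in KO. The 5 livers of a group differed from each other beyond counting noise (at least 8.25 chi-square per gene in 20 pairs). Counting intervals are not given, and more deeply sequenced livers resolve low genes better. Alternatives were DESeq2 1.42.0, its size factors, library totals, no filter, other folds, the muscles averaged, age as a covariate between livers, the mouse as a block, and leaving out each mouse. Leaving out the WT lung or kidney library that stood apart, or both for folds of named genes, was added after the data were seen.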

Additional observations from a re-analysis of the deposited data

Results flagged for a closer look

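In 23 of 236 groups of 5 livers, 1 library stood so far from the next that the gap took more than 0.71 of the group's range. Chance would mark about 1 in 20 such groups if the genes were independent, normally distributed and chosen without regard to spread. Here some genes were chosen for a large spread between the WT livers or a small p between genotypes. Related genes, such as the fibrinogen chains, were counted separately, and some flags rest on reads under the floor of detection. The count of 23 therefore cannot be set against that rate, and no excess over chance is drawn from it. All values are normalised CPM, each with that of the nearest other liver of the same genotype.

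Among WT livers, mouse 3793543 was high for Igfbp1 (256 against 103), Irs2 (22.6 against 12.2) and Aass (504 against 413) and low for Mbl2 (271 against 349) and Amd2 (8.59 against 51.1). Mouse 3817948 was high for Hsd3b5 (118 against 36.6), Cyp2f2 (2046 against 1638) and Glul (1008 against 919) and low for Acadm (578 against 692). Mouse 3805673 was high for the complement genes C3 (11873 against 10570), C7 (2.03 against 1.30) and C1qc (37.3 against 27.5). Mouse 3793553 was low for Igf1 (572 against 684) and was the 1 WT liver with reads of Dao (0.0900) and Sult2a1 (0.180), both under the floor of detection of that library. Mouse 3805657 was high for Nutf2 (28.7 against 5.74) and had 0 reads of its copy Nutf2-ps1 (against 21.1).

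Among KO livers, mouse 3779417 was highest for all 3 fibrinogen chains, Fga (9049 against 6292), Fgb (6400.0 against 4809) and Fgg (5174 against 3724). Mouse 3805676 was highest for Ehhadh (3410.0 against 1433) and Apoa4 (1441 against 434), and mouse 3805666 for Rgs16 (107 against 23.7).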

How the results depend on the processing

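The numbers of genes called higher or lower, enriched or depleted stayed within 1.5 times the reported value in 90 recomputations and moved further in 16. The exceptions were the fold that defines a set, the scaling and, for the genotype difference, single mice. At a fold of 2 instead of 4 there were 1071 enriched and 906 depleted genes in WT liver and 1077 and 953 in KO, and at 10 there were 403 and 77 in WT and 394 and 96 in KO. Scaling by library totals gave 641 depleted genes in WT and 666 in KO and 1 gene with a genotype difference. It also lowered the number of enriched genes to 455 in WT and 450 in KO, which is within 1.5 times. By library totals 26 plasma carrier and export proteins, 10 complement genes and 5 PPARα targets were enriched in WT. So were 2 genes of fatty acid and triglyceride synthesis and 0 markers of sinusoidal endothelium. Leaving out 1 mouse at a time gave 12847 to 12978 genes called in WT and 12905 to 13070 in KO, 614 to 630 and 604 to 619 enriched, 366 to 386 and 373 to 405 depleted, 0 between KO and WT livers, and 0 to 2 for the genotype difference, where leaving out 1 mouse lets Nutf2, Moxd1 or Pcdhgb5 pass. With the mouse as a replicate block WT liver had 622 enriched and 380 depleted genes and KO liver 612 and 395, and the block changed no call of a gene named in the text.

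Among the genes named for their liver contrast, 2686 recomputations kept direction and call, 12 lost the call, 7 gained it and 11 turned direction. Averaging the 4 muscles into 1 tissue turned the log2 difference of COX1 to 0.27, ATP6 to 0.27, COX3 to 0.23, CYTB to 0.35, ND4 to 0.29, Irs1 to 0.50, Acacb to 0.01, Lpin1 to 0.21, Arntl to 0.02 and Nr1d1 to 0.04, and leaving out mouse 3805673 turned CYTB to 0.02 (from -0.16 without mouse 3805657, the other end of that range). By construction averaging gives muscle less weight, while for CYTB without that mouse the cause was not tested. Levels of named genes in liver moved by more than their SD in 157 recomputations, all with library totals, to 0.758 to 0.767 of the reported value, and did not in 1488. Depth limits genes under about 3 reads in the shallowest WT liver, where a difference in such genes was not detectable.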

Other observations

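Values of single livers that belong in no comparison above are given here, for genes chosen after their levels were seen. The WT liver of mouse 3793543, with the fewest reads of the 5, stood at one end for the genes given next, though not for Pck1, where it was second lowest at 5101. It had the highest normalised CPM of Igfbp1 (256 against 57.2 to 103 in the other 4), of G6pc (883 against 574 to 733) and of Irs2, the insulin receptor substrate of liver (22.6 against 9.93 to 12.2). It had the lowest Scd1 (1951 against 2592 to 4141). Its Cyp7a1 (446 against 60.8 to 179) was the highest of the 5. Among the KO livers, that of mouse 3779417 had the highest Igfbp1 (197 against 89.5 to 142). No test was made on these values.

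In KO liver, mouse 3805676 had the highest Fgf21 (16.4 against 3.33 to 7.23), Ehhadh (3410 against 662 to 1433) and Apoa4 (1441 against 183 to 434). All 3 are known targets of PPARα or CREB3L3, but they were named after their levels were seen and a shared regulator was not tested. In the WT livers Fgf21 and Apoa4 were highest in mouse 3793543, at 8.72 and 682, and so was Ehhadh, at 2021. Of Bcl6 and Cux2 in the KO livers, the liver with the lowest Bcl6, mouse 3817943 at 10.2, had the highest Cux2 at 4.30, while the lowest Cux2, 0.193 in mouse 3805676, went with a Bcl6 of 19.8.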
